A study of Mus musculus with 5 samples.

Results

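DNA replication starts where the origin recognition complex marks a site on chromatin and loads the MCM2-7 ring, a step called licensing. Cdc45 and the GINS proteins then turn the ring into the moving helicase, and polymerases, the sliding clamp and its loader copy the strands behind it. Genes for these factors are known as targets of E2F transcription factors and as transcripts that rise towards S phase in dividing cells. The 43 genes described here were taken by name to cover origin recognition, licensing, the helicase, the polymerases, the clamp and its loader, Okazaki fragment maturation and deoxynucleotide supply. All 43 were among the 54838 genes listed, and all passed the filter on low reads that left 14925 genes for testing.

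RNA was sequenced from N2a cells, a mouse neuroblastoma line, after lipid transfection with siRNA. The 2 control libraries (siCtrl) received a control oligonucleotide, and the 3 others (siEwsr1) an oligonucleotide that targets Ewsr1, the gene of an RNA-binding protein of the FET family. Cells of both groups received 2 pulses of transfection and were collected 24 hours after the last. A single siRNA label is given for each group. Whether replicates were independent cultures is not stated, so the spread behind each p-value could be technical. The libraries were stranded and depleted of ribosomal RNA, and held 15045774 to 21339459 counted reads.

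The knockdown was visible in every library. Ewsr1 (chromosome 11, 5069689 to 5099266, GRCm38) stood at 71.7 and 72.3 RPKM in the siCtrl libraries and at 35.7, 36.3 and 37.6 RPKM in the siEwsr1 libraries, where RPKM is reads relative to exonic length and to the sum of counted reads. Its log2 fold change was -0.96 ± 0.08 (SE), with limma adjusted p = 8.2e-04. Of 9 neuroblastoma markers, all were tested, and their summed level was 537 and 573 RPKM in siCtrl and 507 to 609 RPKM in siEwsr1. Of 6 fibroblast and mural markers 2 passed the filter, with a summed level of 2.94 to 3.22 RPKM in siCtrl and 0.890 to 0.971 RPKM in siEwsr1. Acta2 fell from 2.76 to 0.857 RPKM, Col1a1, Col1a2 and Dcn were at or near 0, and Lum was listed at 0 in all 5 libraries. Leukocyte markers, of which Csf1r was listed at 0 throughout, summed to 0.582 to 1.002 RPKM and endothelial markers to 0.414 to 0.561 RPKM over all 5 libraries. Whether any such cells were present, or had a part in the results, was not tested. In bulk RNA, a change in the share of cells in a cycle phase and a change of RNA per cell cannot be told apart.

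Replication genes were on the whole slightly higher after siEwsr1, and few of them passed the test one by one. Over all genes, limma called 784 of 14925 at an adjusted p under 0.05 (5.25%), of which 364 were higher (2.44%) and 420 lower (2.81%). Of the 43 replication genes, 6 rose: Rfc5, Mcm7, Mcm5, Mcm6, Cdc45 and Rrm2. None fell by that test, and 20 of 43 had an unadjusted p under 0.05, against 22.1% of all genes tested. The 37 others were not called, with log2 fold changes from -0.34 to 0.38. The log2 fold change was above 0 in 39 of 43, against 48.4% of all genes tested, and its median was 0.22 against -0.01 over all genes. All 3 siEwsr1 libraries lay above both siCtrl libraries for 29 of 43 genes, against a background of 19.3%, and below both for 2 of 43, against 20.5%. The median differences from the siCtrl mean were 0.22, 0.18 and 0.20 in siEwsr1 replicates 1, 2 and 3, and the median difference between both controls was 0.02.

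The number of called genes depended on the libraries and on the fit. With either siCtrl library left out, a single control library remained, too few to read calls from. The median log2 fold change of the 43 genes was then 0.23 (without siCtrl replicate 1) and 0.21 (without siCtrl replicate 2). Leaving out siEwsr1 replicate 1 kept 1 call (Rfc5), leaving out replicate 2 kept all 6, and leaving out replicate 3 gave 17. Of all genes tested, these fits called 0.37%, 1.87% and 12.9% higher, in that order. With limma's usual variance trend on the mean RPKM level, tried first, 2 were called (Rfc5 and Mcm6), against 0.79% of all genes called higher. The trend on mean reads used here was adopted after those counts had been seen. With neither trend nor robust moderation 0 were called, as was true of all genes, although 11 of the 43 had an unadjusted p under 0.05.

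**Figure D1:**
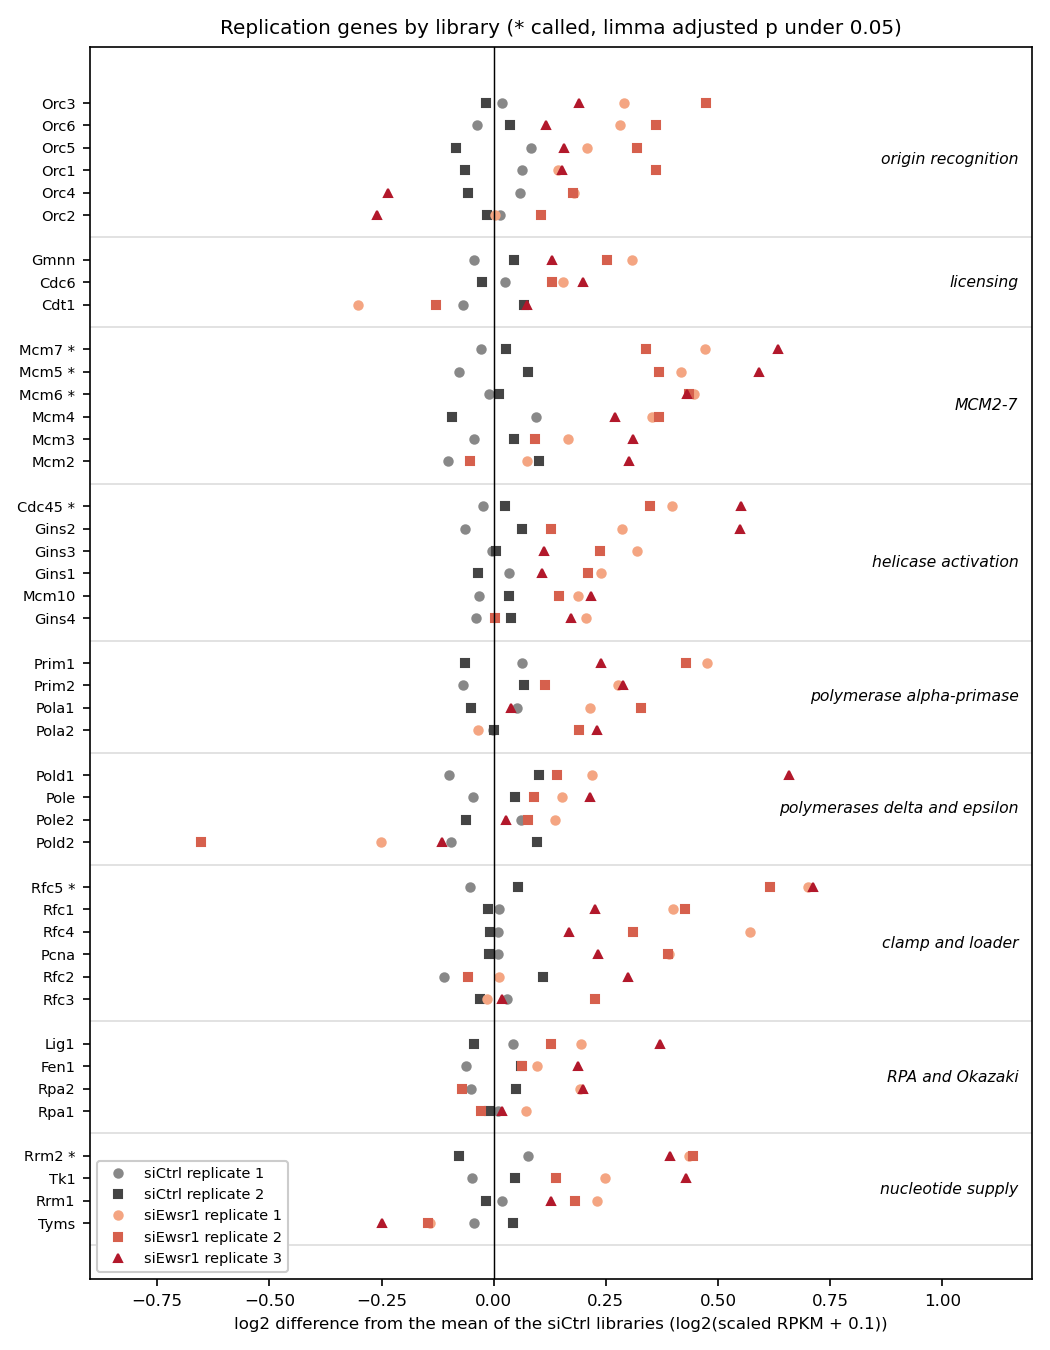
Log2 difference of each library from the mean of the siCtrl libraries (x axis, on the log2(scaled RPKM + 0.1) scale) for the 43 replication genes (y axis), grouped by role. Each point is 1 library, grey for siCtrl and red for siEwsr1. Most red points lie to the right of 0, the 6 called genes carry an asterisk, and the triangles of siEwsr1 replicate 3 are the lowest siEwsr1 value for 19 genes and the highest for 20.

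Short promoter windows are shown for Mcm5, Mcm6 and Mcm7, the called genes whose promoter held a canonical E2F element (TTGGCGC or TTCCCGC, searched on both strands). Windows are from RefSeq on GRCm38.p6, on the strand of the gene and 5′ to 3′. Capitals mark each element, which reads GCGCCAA where it lies on the opposite strand.
Mcm5, chr8:75109334-75109393, plus strand: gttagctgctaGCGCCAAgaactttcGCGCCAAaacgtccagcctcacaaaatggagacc
Mcm6, chr1:128359718-128359777, minus strand: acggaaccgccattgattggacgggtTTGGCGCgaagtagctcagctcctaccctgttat
Mcm7, chr5:138171834-138171893, minus strand: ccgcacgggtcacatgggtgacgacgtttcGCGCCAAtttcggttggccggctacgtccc
Mcm7, second listed start, chr5:138171346-138171405, minus strand: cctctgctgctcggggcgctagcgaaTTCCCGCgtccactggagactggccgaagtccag
Promoter windows (250 bases before to 50 after a start) were listed for 35 of the 43 genes, some with several starts. An element was held by 19 of these 35 genes (54.3%). A gene counted once if any of its windows matched, and Orc4 and Lig1 matched in only some of theirs. The share with an element was 14.5% among 10026 tested genes with a window and 7.79% among all 27025. It was 42.9% in 35 other replication genes with a window and 13.3% in 15 such G2 and mitosis genes. CCAAT, searched the same way, was in 62.9% of the 35 genes, in 43.7% of tested genes and in 93.3% of the G2 and mitosis genes. The median log2 fold change was 0.22 in the 19 genes with an E2F element and 0.20 in the 16 without one. Windows of the called genes Cdc45, Rfc5 and Rrm2 held no exact match, as did those of Pcna, Tyms and Tk1. A match describes letters only and shows no binding.

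The origin recognition complex is the ATP-driven machine that marks origins. None of its 6 genes was called, and their median log2 fold change was 0.22. Orc3 had the largest value, with 9.85 and 9.69 RPKM in siCtrl and 11.7, 13.3 and 11.2 RPKM in siEwsr1 (log2 fold change 0.32 ± 0.10 SE, limma adjusted p = 0.112). Its groups did not overlap. Orc6, the subunit with the highest mean level in both groups, was at 48.6 and 51.5 RPKM in siCtrl and at 59.7, 63.1 and 54.6 RPKM in siEwsr1, again without overlap (adjusted p = 0.164). Orc2 was at 48.7 and 48.1 RPKM in siCtrl and at 47.6, 51.0 and 40.7 RPKM in siEwsr1, with siEwsr1 libraries on both sides of the controls. In Orc2, 29.8% of the exonic bases are shared with Nif3l1 on the opposite strand, and the strand setting of the counting is not given. Orc6 shares 6.93% with Vps35, also on the opposite strand, at 42.3 to 52.4 RPKM. Orc1, which is known to vary over the cell cycle, had the lowest level of the 43 genes, at 5.63 to 6.11 RPKM in siCtrl and 6.36 to 7.41 RPKM in siEwsr1.

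Cdc6 and Cdt1 load the MCM ring with the origin recognition complex, and geminin (Gmnn) inhibits Cdt1. None of the 3 was called. Gmnn was at 36.4 and 39.0 RPKM in siCtrl and at 45.8, 44.0 and 41.6 RPKM in siEwsr1, higher in every siEwsr1 library (log2 fold change 0.23, adjusted p = 0.201). Cdt1 was at 21.9 and 24.3 RPKM in siCtrl and at 18.3, 20.7 and 24.5 RPKM in siEwsr1, so the groups overlapped and siEwsr1 replicate 3 reached the highest control (log2 fold change -0.12, adjusted p = 0.598). Cdc6 was at 15.9 to 16.4 RPKM in siCtrl and 17.4 to 18.7 RPKM in siEwsr1 (adjusted p = 0.302).

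The MCM2-7 ring is the core of the replicative helicase and holds 1 copy of each of its subunits. Its genes had the highest median of the 9 role groups, at 0.38, and 3 of 6 rose. Mcm7 stood at 42.5 and 44.5 RPKM in siCtrl and at 59.2, 54.0 and 68.1 RPKM in siEwsr1, with means of 43.5 ± 1.45 (SD, n = 2) and 60.4 ± 7.14 RPKM (SD, n = 3). Its log2 fold change was 0.48 ± 0.10 (SE; limma adjusted p = 0.0257). Mcm7 lies at chromosome 5, 138164583 to 138172422, and its exonic bases include those of Mir25 and Mir93. No level above 0 was restored for either. On the opposite strand it shares 7.25% of its exonic bases with Ap4m1 and 1.45% with Cops6, both expressed.
Mcm5 was at 39.5 and 44.2 RPKM in siCtrl and at 54.7, 52.9 and 63.5 RPKM in siEwsr1 (log2 fold change 0.46 ± 0.10, adjusted p = 0.0281). Mcm6, at 58.8 and 60.2 RPKM in siCtrl and 79.5, 78.9 and 80.8 RPKM in siEwsr1, varied least within groups (log2 fold change 0.44 ± 0.08, adjusted p = 0.0146). For each of these genes the groups stood apart. Mcm4 was at 49.3 and 43.6 RPKM in siCtrl and at 56.4 to 58.7 RPKM in siEwsr1 and just missed the threshold (adjusted p = 0.0672).
Mcm2 was the least changed of the 6 genes. It was at 27.9 and 32.4 RPKM in siCtrl and at 31.1, 28.4 and 37.4 RPKM in siEwsr1, with overlapping groups (log2 fold change 0.11 ± 0.12, adjusted p = 0.625). Mcm6 was the highest and Mcm2 the lowest of the 6 genes in every library, and the ratio of their levels was 2.10 and 1.86 in siCtrl and 2.56, 2.77 and 2.16 in siEwsr1. The difference between the responses of Mcm2 and Mcm6 was not tested.

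**Figure D2:**
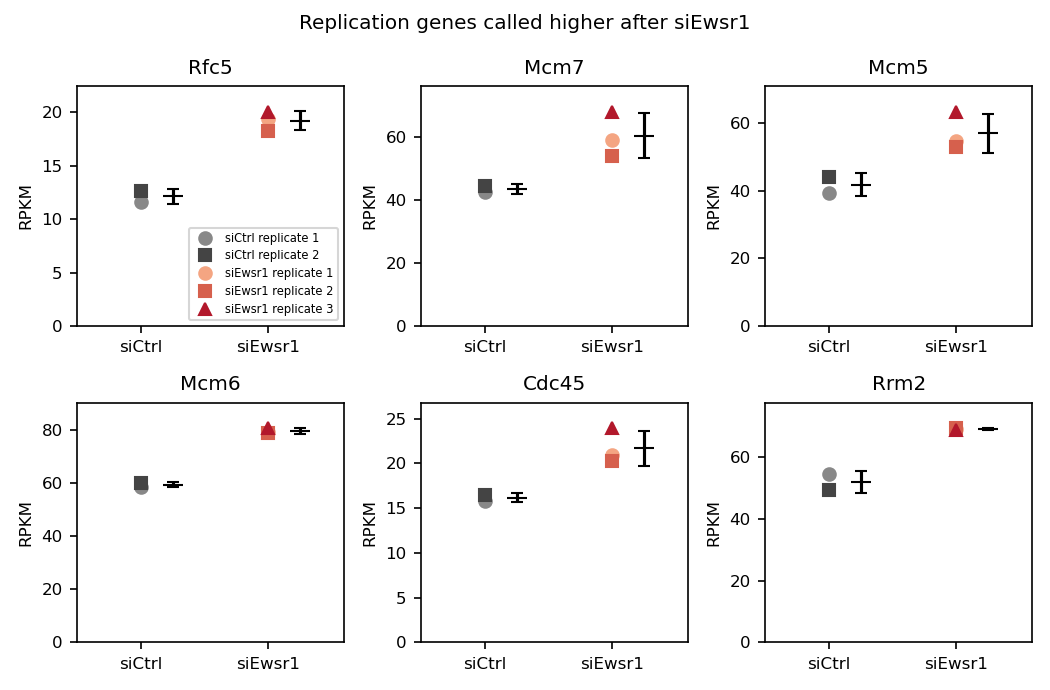
RPKM (y axis, from 0) of the 6 replication genes called higher, with 1 point per library and the group mean and SD beside the points (siCtrl n = 2, siEwsr1 n = 3). In each panel all siEwsr1 points lie above both siCtrl points, as for Rfc5 at 18.3 to 20.1 against 11.6 to 12.6 RPKM.

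Cdc45 and the 4 GINS proteins bind the ring to form the active helicase, and Mcm10 assists its activation. Of these 6 genes 1 rose. Cdc45 (chromosome 16, 18780447 to 18811987) stood at 15.8 and 16.5 RPKM in siCtrl and at 20.9, 20.2 and 23.9 RPKM in siEwsr1. Its groups did not overlap, with a log2 fold change of 0.43 ± 0.10 (SE) and limma adjusted p = 0.0338. In Cdc45, 5.96% of the exonic bases are shared with Ufd1 on the opposite strand. Gins4, the highest and the least changed of the 6, was at 44.4 and 47.3 RPKM in siCtrl and at 51.9, 45.0 and 52.0 RPKM in siEwsr1, with overlap (adjusted p = 0.486). Gins1, Gins2, Gins3 and Mcm10 had log2 fold changes of 0.19, 0.32, 0.22 and 0.18, none of them called. For Gins2, 67.3% of the exonic bases are shared with Gse1 on the opposite strand.

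Polymerase alpha with primase lays down the RNA-DNA primers from which synthesis begins. None of its 4 genes was called, all were above 0, and the median log2 fold change was 0.21. Prim1, the catalytic primase subunit, came nearest to the threshold of all uncalled replication genes, with adjusted p = 0.0534. It was at 44.0 and 40.6 RPKM in siCtrl and at 57.7, 55.8 and 50.3 RPKM in siEwsr1 (log2 fold change 0.38 ± 0.10), without overlap. Pola2 was at 10.4 and 10.5 RPKM in siCtrl and at 10.04, 11.7 and 12.4 RPKM in siEwsr1, with overlap (adjusted p = 0.558). Its exonic length was solved from the values, because the GENCODE length gave no whole reads.

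Polymerase epsilon copies the leading strand and polymerase delta the lagging strand. The 2 polymerase delta genes held both ends of this group, with a median log2 fold change of 0.12 over the 4 genes. Pold1, the catalytic subunit, was at 8.37 and 9.71 RPKM in siCtrl and at 10.3, 9.75 and 14.4 RPKM in siEwsr1 (log2 fold change 0.34 ± 0.15, adjusted p = 0.218). The groups were apart by a narrow margin, and siEwsr1 replicate 3 was far above the other siEwsr1 libraries. Pold2, the accessory subunit, was at 46.6 and 53.6 RPKM in siCtrl and at 41.2, 31.1 and 46.5 RPKM in siEwsr1, below both controls in each library (log2 fold change -0.34 ± 0.15, adjusted p = 0.205). It was called lower, with a log2 fold change of -0.45, when siEwsr1 replicate 3 was left out. In order of mean level Pold2 ranked 5 of 43 in siCtrl and 16 in siEwsr1. Pole and Pole2 had log2 fold changes of 0.15 and 0.08.

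The clamp PCNA holds polymerases on DNA, and the 5 RFC proteins open and close it. The group's median log2 fold change was 0.34, and 1 of 6 genes rose. Rfc5 (chromosome 5, 117378103 to 117389047), a small loader subunit, had the largest change of the 43 genes. It stood at 11.6 and 12.6 RPKM in siCtrl and at 19.4, 18.3 and 20.1 RPKM in siEwsr1, with means of 12.1 ± 0.708 (SD, n = 2) and 19.2 ± 0.913 RPKM (SD, n = 3). Its log2 fold change was 0.68 ± 0.09 (SE; limma adjusted p = 0.00403), and 10.7% of its exonic bases are shared with Wsb2 on the opposite strand.
Pcna had the highest level of all 43 genes, at 84.7 and 84.3 RPKM in siCtrl and 108.8, 108 and 100.1 RPKM in siEwsr1. The control libraries differed by less than 1 RPKM, the groups were well apart, and the test gave a log2 fold change of 0.34 ± 0.09 with adjusted p = 0.0559. Rfc1, the large loader subunit, was likewise apart, at 42.5 and 42.2 RPKM in siCtrl and 54.9, 55.8 and 49.9 RPKM in siEwsr1 (log2 fold change 0.35, adjusted p = 0.0547). Rfc3 was at 21.4 and 20.7 RPKM in siCtrl and at 20.4, 24.1 and 21.5 RPKM in siEwsr1, with overlap (adjusted p = 0.705). Loader subunits thus ranged from 0.08 (Rfc2 and Rfc3) through 0.35 (Rfc1 and Rfc4) to 0.68 (Rfc5). On the opposite strand, Rfc4 shares 12.7% of its exonic bases with Eif4a2, at 50.55 to 57.4 RPKM. Rfc2 shares 15.1% with Lat2, also on the opposite strand.

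RPA coats single-stranded DNA, FEN1 trims the flaps of Okazaki fragments and DNA ligase 1 (Lig1) seals them. These 4 genes had the lowest median, 0.11, and none was called. Lig1 was at 22.01 and 20.9 RPKM in siCtrl and at 24.1, 23.0 and 27.9 RPKM in siEwsr1, without overlap (log2 fold change 0.23, adjusted p = 0.205). Fen1 was at 39.4 and 43.3 RPKM in siCtrl and at 43.4, 42.3 and 47.4 RPKM in siEwsr1 with overlap on the RPKM scale (adjusted p = 0.491). It shares 78.8% of its exonic bases with the antisense gene Gm10143, which was at 0.120 to 0.366 RPKM over the 5 libraries. Rpa1 was nearly level, at 31.4 and 31.3 RPKM in siCtrl and 32.4, 30.1 and 32.0 RPKM in siEwsr1 (log2 fold change 0.02 ± 0.08, adjusted p = 0.915).

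Ribonucleotide reductase (Rrm1, Rrm2), thymidylate synthase (Tyms) and thymidine kinase (Tk1) supply deoxynucleotides. Rrm2, the subunit known to be limiting in S phase, rose. It stood at 54.5 and 49.4 RPKM in siCtrl and at 68.9, 69.3 and 68.6 RPKM in siEwsr1, with means of 51.9 ± 3.64 and 68.9 ± 0.318 RPKM (log2 fold change 0.42 ± 0.09 SE, limma adjusted p = 0.0248). Tyms lay in the other direction, at 18.4 and 19.7 RPKM in siCtrl and 16.9, 16.9 and 16.1 RPKM in siEwsr1. All 3 siEwsr1 libraries were below both controls, but the change was not called (log2 fold change -0.18 ± 0.09, adjusted p = 0.266). Tk1 and Rrm1 were not called, with log2 fold changes of 0.27 and 0.18 and no overlap between groups.

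**Figure D3:**
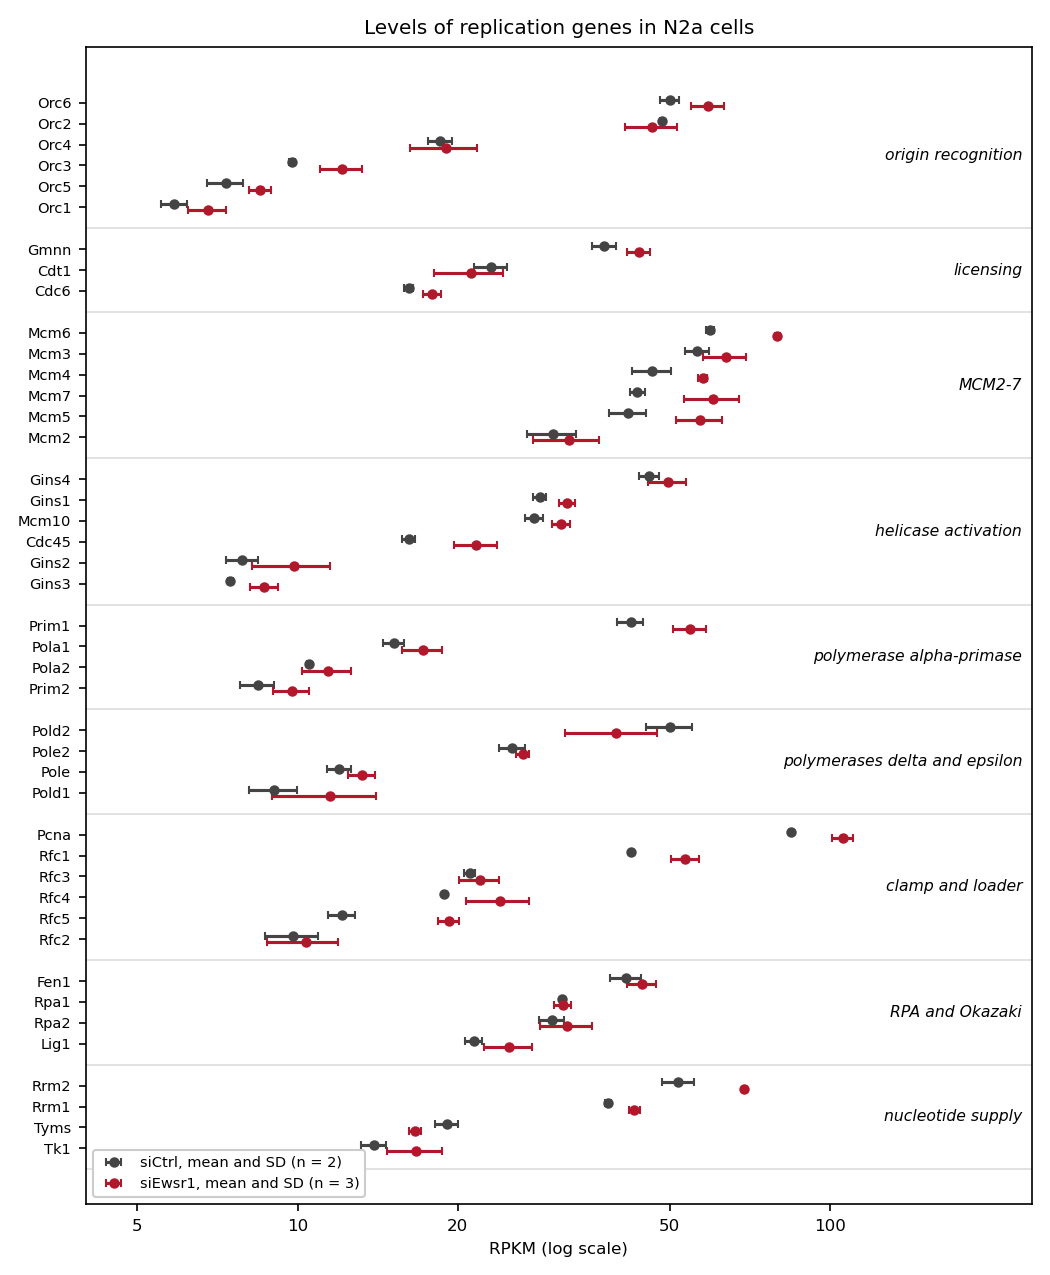
Mean level and SD in RPKM (x axis, log scale) of the 43 replication genes (y axis) in siCtrl (grey, n = 2) and siEwsr1 (red, n = 3), by role. Levels run from Orc1 at 5.87 to Pcna at 84.5 RPKM in siCtrl, and subunits of 1 complex differ widely, as Orc6 at 50.04 and Orc1 at 5.87 RPKM do.

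Of 42 other genes of the replication pathway, all tested, 3 rose and none fell by limma, against 2.44% and 2.81% of all genes tested. An unadjusted p under 0.05 was found for 19 of the 42, against 22.1% of all genes tested, and among these Mtbp and Recql4 were below 0. The log2 fold change was above 0 in 33 and below 0 in 9, with a median of 0.16. Over all genes tested, 48.4% were above 0 and the median was -0.01. Donson, a factor for helicase assembly, was at 13.4 and 12.4 RPKM in siCtrl and at 17.9, 21.1 and 17.4 RPKM in siEwsr1 (log2 fold change 0.56, adjusted p = 0.0248). Nasp, a histone chaperone, rose by 0.52 on the log2 scale (adjusted p = 0.0135), and Dctd, a deaminase of nucleotide supply, by 0.40 (adjusted p = 0.0321). Of 20 genes of G2 and mitosis none was called in either direction by limma, against 5.25% of all genes tested. Of these 20 genes 7 were above 0, against 48.4% of all, and the median was -0.04. An unadjusted p under 0.05 was found for 3 of the 20 (Cdc25c, Ube2c and Prc1, all below 0), against 22.1% of all genes tested. All 3 siEwsr1 libraries lay below both siCtrl libraries for 4 of the 20, against 20.5% of all genes. They lay above both for 2 of the 20, against 19.3%. The difference between the lists was not tested.

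Libraries of 1 group differed from each other along the base composition of the replication genes. Over the 43 genes, GC content of the longest transcript correlated with the log2 difference between siEwsr1 replicate 3 and the mean of the other siEwsr1 libraries, with Pearson r = 0.84 and Spearman rho = 0.83. It also correlated with the difference between siCtrl replicates 2 and 1 (r = 0.70, rho = 0.69). Over all genes with a GC value these correlations were 0.45 and 0.07 (r), and 0.58 and 0.17 (rho). With the log2 fold change of siEwsr1 against siCtrl, GC gave r = -0.09 over the 43 genes and -0.15 over all. The points share libraries and are genes, not replicates, so these values are descriptions. The 3 most GC-rich genes, Pold1, Pold2 and Cdt1, were higher in siEwsr1 replicate 3 than in the mean of replicates 1 and 2 and higher in siCtrl replicate 2 than in replicate 1, and the most GC-poor, Orc4, was lower in both. Lig1, also GC-rich, was higher in siEwsr1 replicate 3 (0.21) but lower in siCtrl replicate 2 (-0.09). On the first principal component of all tested genes (45.4% of variance), siEwsr1 replicate 3 lay at -0.15, between siCtrl at -21.2 and -28.9 and the other siEwsr1 libraries at 16.5 and 33.8.

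**Figure D4:**
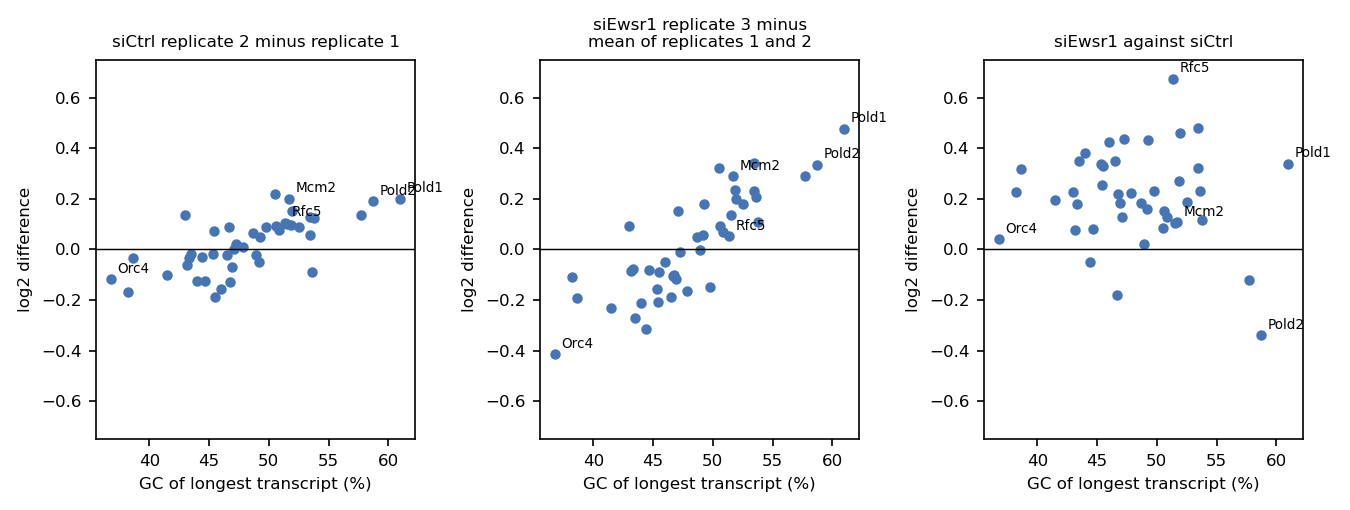
Log2 difference (y axes) against GC content of the longest transcript (x axes, percent) for the 43 replication genes, 1 point per gene. GC follows the differences between libraries within siCtrl (left, r = 0.70) and within siEwsr1 (middle, r = 0.84), while the change after siEwsr1 (right) shows r = -0.09.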

How the data were processed

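The tools named in the submitters' processing notes are STAR 2.5.2b, featureCounts 1.5.1 and edgeR, with build GRCm38; no strand setting or annotation release was found in the labels. The authors deposited 1 file per library without a unit in its header. The deposited values behave as RPKM whose decimal point was lost at 1 and above, so their unit was recorded as other. The point was restored by requiring whole reads (within 1e-06) from value, GENCODE M21 exonic length and library total, jointly over the 5 libraries without group labels and with odds of at least 20. Recovered reads summed to within 0.0374% of each total. Of the 43 genes, 17 were read above the lowest possible decimal position, among them the called genes Mcm5 and Mcm7. So were all 4 genes with a log2 fold change below 0 (Orc2, Cdt1, Pold2 and Tyms). Exonic length is the union of all annotated transcripts, retained introns included.

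Scaling used trimmed means (30% of ratios, 5% of levels). limma 3.58.1 (R 4.3.3) was fitted on log2(RPKM + 0.1) over genes with at least 10 reads in at least 2 libraries, with group as the only term, robust moderation and Benjamini-Hochberg adjustment over 14925 genes. Fold changes on this scale understate those of low genes.

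Several forms of the restoration score and its spread were tried and judged on simulated data and on whether Ewsr1 was kept. The variance trend was moved from mean RPKM to mean reads after the first counts had been seen, because counting error follows reads and because earlier work on these data had counts close to those it gave. Both choices, and the 43 genes and the lists, were made with results of these data known. Values in every library are given for called members and, in each role group, for those with the largest and smallest change and the highest level. The planned edgeR and DESeq2 alternatives were not run, since the values are not counts; limma voom was added. The fit and the restoration were tested on simulated data.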

Additional observations from a re-analysis of the deposited data

How the results depend on the processing

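Without siEwsr1 replicate 3 and under the replicate block, which gives that unpaired library no weight, more genes were called. Deviations of same-numbered libraries from their group means correlated at 0.03 and -0.12. With 2 siCtrl libraries, whose deviations mirror each other, these values cannot settle whether the numbers pair the samples. The block called 1643 genes higher and 1690 lower, and 15 members higher and 1 lower (Pold2). It also called 17 and 2 other replication genes, and 1 and 3 G2 and mitosis genes. Leaving out 1 library gave 3 to 1885 genes higher, 3 to 1909 lower, 0 to 17 members higher, 0 to 1 lower, 0 to 18 and 0 to 2 other replication genes, and 0 to 1 and 0 to 3 G2 and mitosis genes. Pseudocount 1 called 172 genes higher, 217 lower and 3 members. No filter on low values gave 20, 40 and 0, and 0 other replication genes. No variance trend or robust moderation gave 0 in each of these 4 counts. The variance trend on mean RPKM, like voom chosen after seeing the data, gave 118, 148, 2 and 0. Without genes read above the lowest decimal position 1 other replication gene was called, and 4 members. The members' median log2 fold change of 0.22 became 0.19 with pseudocount 1, 0.24 without those genes, 0.20 under the block and 0.20 to 0.23 with 1 library left out. In every setting that tested all 43 members, 38 or 39 were above 0. Without genes read above the lowest decimal position, all 26 members tested were above 0. No member named as called changed sign in any setting. The causes were not tested, and with 2 control libraries no exact permutation test can reach the threshold.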

Other observations

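The 7-mer TCACTGC, which earlier work picked from these same fold changes, was in the 3′ UTR of 3 of the 43 replication genes (Orc6, Mcm5 and Rfc5) and in 14.3% of 11922 tested genes with a 3′ UTR. Of these 3 genes, Mcm5 and Rfc5 were called higher. Because the 7-mer was picked from the same fold changes, its presence in called genes is no evidence of a link, and none was tested. The sites are written on GRCm38, with the RNA strand as DNA and the 7-mer in capitals.
Orc6, chr8:85307711-85307732, plus strand: tttccatcTCACTGCaggcatg
Mcm5, chr8:75127604-75127625, plus strand: cgggccacTCACTGCcaagctt
Rfc5, chr5:117378679-117378700, minus strand: gtgcgccaTCACTGCccagcta
The other 4 called genes, Mcm6, Mcm7, Cdc45 and Rrm2, did not hold it. GCAATTT, picked the same way among lower genes, was in Orc2 and Gins2, and in 8.40% of tested genes.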
